A study of Mus musculus with 6 samples.

Results

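The expression of 10 cell cycle genes was followed in single cells of lower abdominal muscle (LAM), namely Mki67, Top2a, Cdk1, Birc5, Ube2c, Cenpf, Ccnb1, Ccna2, Pcna and Mcm5. They were taken by name from a table of 16494 genes, and all 10 were present. A barcode, the tag that marks the RNA of 1 captured cell, was called cycling when it held unique molecular identifiers (UMIs, each standing for 1 captured transcript) from at least 2 of the 10 genes, which gave 2648 of 63647 barcodes. The cells came from male FVB/N mice of 9 to 10 weeks, 3 wild-type (WT) and 3 Aromhum, the latter labelled with scrotal hernia. Aromhum mice carry the human aromatase gene CYP19A1, which makes estrogens from androgens, under its native tissue-specific promoters. The muscle was minced and digested with collagenase II and dispase, strained to remove multinucleated cells, and run on the 10x Genomics droplet platform with 1 library per mouse, so the replicates are separate mice. The study asks which cell types of the muscle respond to raised local estrogen, and the comparison made here is WT against Aromhum within each cell type. The Aromhum libraries held 770, 797 and 787 UMIs of CYP19A1 and each WT library held 0, which allows up to 3 UMIs per library.

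The 10 genes act at successive steps of the division cycle. Mcm5 is a subunit of the helicase loaded on replication origins, and PCNA is the sliding clamp that holds DNA polymerases on the template and also serves DNA repair, so its transcript is not restricted to dividing cells. Cyclin A2 (Ccna2), cyclin B1 (Ccnb1) and the kinase Cdk1 drive S phase, G2 and entry into mitosis. Topoisomerase II alpha (Top2a) untangles replicated DNA, Ki-67 (Mki67) coats mitotic chromosomes, and CENP-F (Cenpf) sits at kinetochores. Survivin (Birc5) belongs to the chromosomal passenger complex and Ube2c is the ubiquitin-conjugating enzyme of the anaphase-promoting complex. In resting adult muscle most fibroblasts, endothelial cells and muscle stem cells are quiescent.

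The libraries held 7905 to 13764 barcodes and 64958237 to 111826460 UMIs, with medians per barcode of 4728.5 to 5897 UMIs in WT and 6673 to 8727 UMIs in Aromhum, so the depth moved with genotype. Barcodes were clustered without the 10 genes and without the other listed cell cycle genes, and clusters were named from marker genes. This gave 23731 fibroblast-like and 19390 endothelial-like barcodes and 10 smaller types. Fibroblast-like barcodes made up 21.4% to 36.3% of WT and 40.5% to 50.8% of Aromhum libraries, and endothelial-like barcodes 36.2% to 48.4% of WT and 16.2% to 28.4% of Aromhum libraries. Only 18852 barcodes met the limits stated by the study (200 to 2500 genes, at least 1000 UMIs, at most 5% mitochondrial UMIs). A total of 471 barcode sequences occurred in more than 1 library, and 43 of the 943 barcodes with such a sequence were cycling.

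The cycling barcodes were of 2 kinds. The number of barcodes fell from 41335 with none of the 10 genes to 19664 with 1, 1907 with 2, 227 with 3, 89 with 4, 61 with 5 and 46 with 6, and then rose again to 69 with 7, 88 with 8 and 103 with 9, before 58 with all 10. Of the cycling barcodes, 72.0% held exactly 2 of the genes, and 93.3% of these held Pcna as 1 of the pair. Barcodes with at least 4 of the genes numbered 514, and 318 held at least 7. Depth differed between cycling and other barcodes, and did not rise steadily with the number of genes. Medians were 4943 UMIs with none of the genes, 12278 at 2, 16076 at 3 and 10618 at 4. They were 11400 UMIs at 6 genes, 17499 at 7 and 24743.5 at 10, and each median from 7 genes up lay above those at 4 to 6. Cycling barcodes had a median of 13246.5 UMIs against 6107 UMIs for the others, and 80.5% of the barcodes with at least 4 genes exceeded the limit of 2500 genes, against 34.1% of non-cycling barcodes. Within the limits of the study, 45 of the 514 were left. Scrublet, a doublet caller, marked 3.89% of the 514 barcodes and 1.97% of the others, and the part of doublets in the 514 was not tested.

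**Figure D1:**
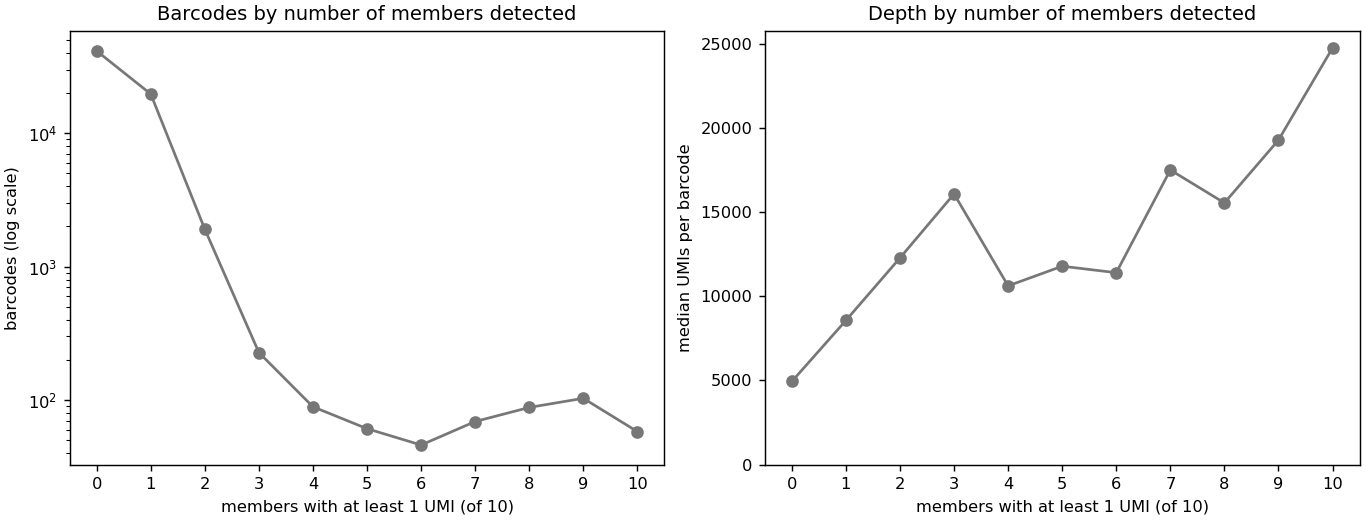
The left panel gives the number of barcodes (log scale) and the right panel the median UMIs per barcode, each against the number of the 10 genes with at least 1 UMI, over all 63647 barcodes. The count falls to 46 barcodes at 6 genes and rises to 103 at 9 genes, and the median depth is 4943 UMIs with none of the genes and 24743.5 UMIs with all 10.

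Pcna was set apart from the other 9 genes by where its transcripts were. Pcna was detected in 31.1% of all barcodes, and only 3.53% of its UMIs lay in the 514 barcodes with at least 4 of the genes. For Ube2c, Birc5 and Ccna2 that share was 86.4%, 86.2% and 85.5%, and for Mcm5, the other gene of the G1/S step, it was 28.8%. These shares follow in part from the rule that chose the 514 barcodes and are given as a description. When Pcna was detected, it was the only one of the 10 genes in 88.0% of barcodes, against 14.6% for Ccna2.

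The Pcna transcript was lower in Aromhum mice. The paper reports PCNA protein, by Western blot of whole LAM tissue, as higher in Aromhum than in WT mice. That is another molecule measured in the whole tissue, and it was not compared with the transcript here. The gene lies on the minus strand at chr2:132249162-132253314 (GRCm38). In fibroblast-like barcodes summed per mouse, its level was 43.9, 44.3 and 42.8 CPM (UMIs of the gene scaled to a common total per sum) in WT1 to WT3 and 24.3, 25.7 and 30.9 CPM in Arom1 to Arom3. The 3 Aromhum mice all lay below the 3 WT mice, a separation that 16.4% of all genes tested in these cells showed in the same direction. The log2 fold change of Aromhum over WT was -0.70 with a standard error of 0.09 (edgeR quasi-likelihood test on UMIs summed per mouse, n = 3 per genotype, Benjamini-Hochberg adjusted p = 0.0164), and Pcna was the 1 of the 10 genes that was called lower, where 14.5% of all genes tested were called and 6.86% were called lower. The call was kept without WT1 and without Arom3 and lost without any other mouse. Leaving out any of WT2, WT3, Arom1 or Arom2 gave adjusted p between 0.0623 and 0.0781 with a log2 fold change of -0.65 to -0.72, and genes called over the whole table then fell from 2062 to between 2 and 34. Leaving out the fibroblast-like barcodes with at least 4 of the genes gave -0.75, a value with no test, since Pcna is among the genes that chose them. The fibroblast subtypes in these sums differed by genotype. Fibroblasts high in Esr1, the estrogen receptor gene, were 553 of 7990 WT and 3968 of 15741 Aromhum barcodes, and tenocyte progenitors 1908 and 1542. The part of this mix in the fold changes of fibroblast-like barcodes was not tested.

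In endothelial-like barcodes Pcna stood at 172, 169 and 173 CPM in WT and 126, 136 and 139 CPM in Aromhum, again without overlap, where 15% of all genes tested were lower without overlap. The log2 fold change was -0.36 with a standard error of 0.09 (edgeR, n = 3 per genotype, adjusted p = 0.0506), which missed the threshold of 0.05. With the replicate number as a block the adjusted p was 0.0262 (edgeR, 6.8% of all genes called lower), and with DESeq2 0.0108 (3.94% called lower). The difference between the fibroblast-like and the endothelial-like fold change was -0.33 with a standard error of 0.09 and also missed the threshold (edgeR interaction test with mouse as a block, adjusted p = 0.0543). None of the 10 genes passed that test, where 1379 of 14567 genes did (9.47%). Of the 10, 1, Pcna, had an unadjusted p under 0.05, and DESeq2 was not run on it. Pcna was called in this test with RLE scaling (-0.37, edgeR adjusted p = 0.0392, where 6.65% of all genes were negative and called) and without Arom3 (-0.39, adjusted p = 0.0321, where 9.54% were).

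Over every deposited barcode Pcna was 85.2, 98.2 and 114 CPM in WT and 44.1, 41.0 and 57.2 CPM in Aromhum, a log2 fold change of -1.04 with a standard error of 0.15 (edgeR, n = 3 per genotype, adjusted p = 0.0179). It was the only one of the 10 genes called, where 23.6% of all genes tested were called, 12.4% higher and 11.2% lower. With doublets left out Mki67 was also called, higher (0.84, edgeR adjusted p = 0.0489), where 12.6% of all genes were. The 3 Aromhum mice lay below the 3 WT mice, as did 22.9% of all genes. The larger size of this change than within either cell type stood beside the lower share of endothelial-like barcodes, in which Pcna was high, in Aromhum libraries, and the part of that share in it was not tested. Without WT2, WT3, Arom1 or Arom2 the adjusted p was 0.0618 to 0.0760 (edgeR). Of the 11 cell types tested, Pcna had a negative fold change in 9, 1 of them T cell-like, where it was -0.01 with a standard error of 0.40 and the mean CPM ran the other way (69.1 in WT and 84.2 in Aromhum). In muscle stem cell or myoblast-like barcodes it was 84.4 ± 5.60 CPM (SD, n = 3) in WT and 63.9 ± 8.96 (SD, n = 3) in Aromhum, with no overlap (adjusted p = 0.139, edgeR), where 11.6% of genes were lower without overlap. Myonuclei, at 22.2 ± 2.66 CPM in WT and 16.6 ± 1.16 CPM in Aromhum (SD, n = 3), were also apart, where 4.27% of genes were lower without overlap. In smooth muscle or pericyte-like and lymphatic endothelial-like barcodes the log2 fold changes were 0.02 and 0.15, with standard errors of 0.17 and 0.15.

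**Figure D2:**
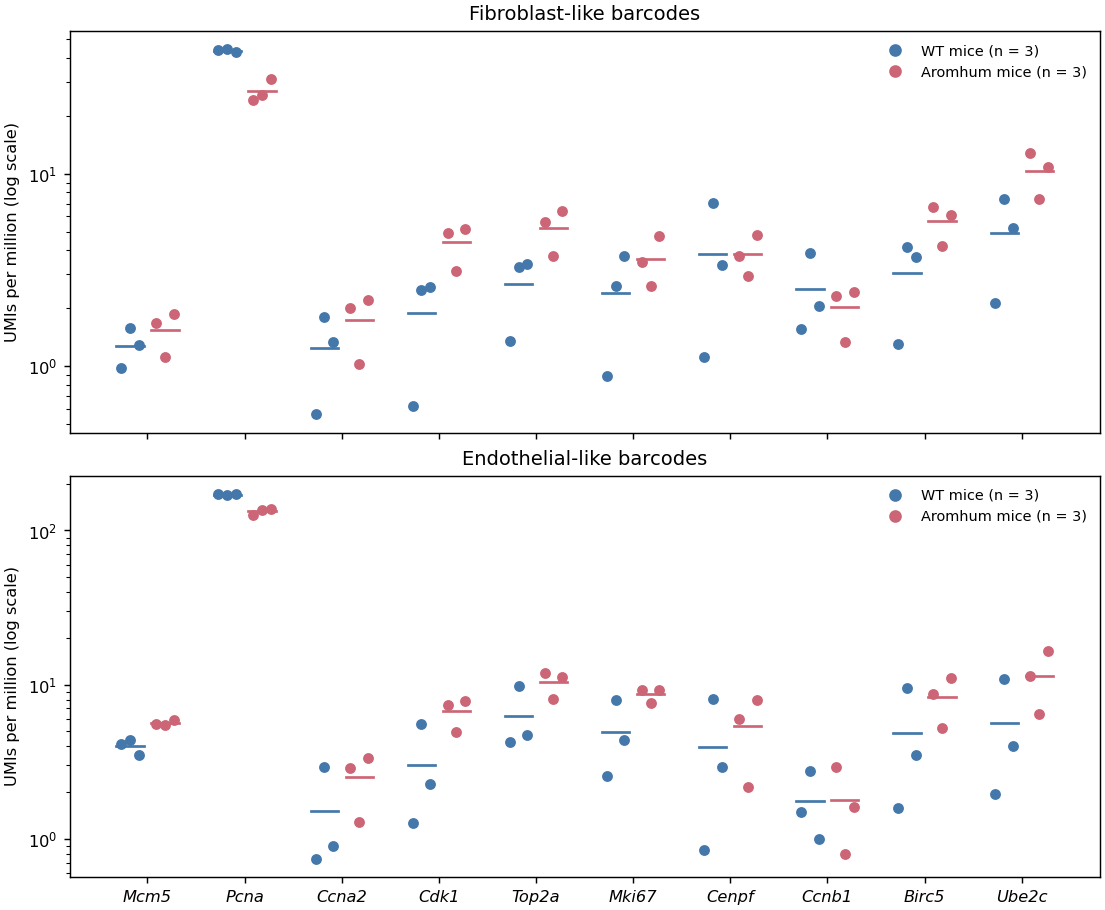
Level of each of the 10 genes (CPM, log scale) in fibroblast-like (top) and endothelial-like (bottom) barcodes summed per mouse. Each point is 1 mouse, blue for WT and red for Aromhum, and each line is the mean of 3 mice. Pcna sits below WT in all 3 Aromhum mice in both panels, while Cdk1, Top2a and Birc5 sit above all WT mice in the top panel.

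The other genes did not move with Pcna. In fibroblast-like barcodes Cdk1 was 0.619, 2.47 and 2.56 CPM in WT and 4.92, 3.10 and 5.15 CPM in Aromhum. Top2a was 1.36, 3.26 and 3.40 CPM in WT and 5.59, 3.73 and 6.40 in Aromhum. Birc5 was 1.30, 4.16 and 3.67 CPM in WT and 6.71, 4.21 and 6.07 in Aromhum. These 3 genes were higher in every Aromhum mouse than in any WT mouse, a separation in that direction that 20.4% of all genes tested also showed. Ube2c, at 2.12, 7.42 and 5.23 CPM in WT and 12.9, 7.41 and 10.9 in Aromhum, overlapped by its WT2 and Arom2 values. WT1 was the lowest of the 6 mice for each of these 4 genes, and Arom2 the lowest of the Aromhum mice.

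None of these 4 genes passed the test over all genes in fibroblast-like barcodes, where 7.68% of the genes tested were called higher. The log2 fold changes were 1.27 with a standard error of 0.47 for Cdk1, 1.00 with 0.34 for Top2a, 0.93 with 0.39 for Birc5 and 1.11 with 0.41 for Ube2c, with adjusted p between 0.0896 and 0.143 (edgeR, n = 3 per genotype). DESeq2 put Cdk1, Top2a and Ube2c past the threshold, with adjusted p of 0.0458, 0.0390 and 0.0356, where DESeq2 called 11.6% of all genes higher. Mki67, Ccna2 and Mcm5 had log2 fold changes of 0.63, 0.52 and 0.28 with standard errors of 0.46, 0.45 and 0.27. Cenpf and Ccnb1, at 0.02 and -0.30 with standard errors of 0.54 and 0.37, showed no common direction over the mice, since WT2 held more of each than any Aromhum mouse. When the barcodes with at least 4 of the genes were left out of the sums, the fold changes were -0.03 for Mki67, -0.09 for Top2a and 1.61 for Cdk1. These are values with no test, because the barcodes were removed for holding these genes.

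The bases before the start sites of Cdk1, Top2a and Mki67 are shown, because their printed windows hold the sequence TTTGAA, the cell cycle homology region found in promoters of late cell cycle genes, beside those of Pcna, the 1 gene of the 10 that was called. The sequences are those of RefSeq on GRCm38.p6, 5′ to 3′ on the strand of the gene, up to 250 bases upstream of the RefSeq start and ending where either RefSeq or GENCODE M21 places the first exon. Capitals mark TTTGAA, the CCAAT box CCAAT, and the E2F sequences TTTCCCGC, TTTGGCGC, TTTGCCGC and TTTCGCGC, searched on both strands. The windows are chr10:69352939-69353162 for Cdk1, chr11:99024190-99024439 for Top2a, chr7:135716380-135716629 for Mki67 and chr2:132253315-132253430 for Pcna, all on the minus strand.
Cdk1: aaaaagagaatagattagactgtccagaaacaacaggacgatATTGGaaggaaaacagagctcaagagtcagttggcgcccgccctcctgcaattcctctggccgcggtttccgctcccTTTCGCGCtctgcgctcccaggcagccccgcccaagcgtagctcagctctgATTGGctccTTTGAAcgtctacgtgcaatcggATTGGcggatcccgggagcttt
Top2a: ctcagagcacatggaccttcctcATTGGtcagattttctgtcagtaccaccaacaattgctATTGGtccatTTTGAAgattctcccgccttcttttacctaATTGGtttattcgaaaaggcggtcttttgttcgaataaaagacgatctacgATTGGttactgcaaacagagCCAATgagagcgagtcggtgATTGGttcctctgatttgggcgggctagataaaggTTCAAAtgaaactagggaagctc
Mki67: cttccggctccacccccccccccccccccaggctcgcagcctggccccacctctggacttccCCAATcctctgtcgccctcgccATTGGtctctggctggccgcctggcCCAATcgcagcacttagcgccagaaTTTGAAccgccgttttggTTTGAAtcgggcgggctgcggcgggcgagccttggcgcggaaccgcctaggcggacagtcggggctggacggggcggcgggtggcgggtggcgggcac
Pcna: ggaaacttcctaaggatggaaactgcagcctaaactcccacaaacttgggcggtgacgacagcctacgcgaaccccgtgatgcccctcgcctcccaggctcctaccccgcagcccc

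Over the full 250 bases, TTTGAA occurred in 4 of the 9 genes with a window (Cdk1, Top2a, Mki67 and Ube2c) and in 16.0% of all 32851 windows. The copy of Ube2c and 1 of the 2 copies of Cdk1 lie in bases that GENCODE places inside the gene and are not printed. CCAAT occurred in 8 of the 9, with 6 copies in Top2a and 6 in Ube2c, and in 33.8% of all windows. Its single copy in Pcna is likewise not printed, since 134 of the 250 bases of Pcna were left out for that reason. Birc5 had none of the searched letters. An E2F sequence was present in Mcm5 and Cdk1 and in 1.86% of all windows. On opposite strands, 2 copies of CCAAT overlap in Ube2c and 2 E2F sequences overlap in Mcm5. No window was given for Ccna2.

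In endothelial-like barcodes the same genes had similar fold changes and a wide spread among WT mice. Mki67 was 2.54, 7.92 and 4.38 CPM in WT and 9.18, 7.62 and 9.28 in Aromhum, so WT2 lay above Arom2. Cdk1 was 1.27, 5.54 and 2.28 CPM in WT and 7.41, 4.94 and 7.84 in Aromhum, also with overlap. Mcm5, the origin helicase subunit, was the gene without overlap upward, at 4.13, 4.38 and 3.51 CPM in WT and 5.56, 5.44 and 5.87 in Aromhum, where 16.6% of genes were higher without overlap. Its log2 fold change was 0.49 with a standard error of 0.16 (edgeR, n = 3 per genotype, adjusted p = 0.0898). None of the 10 genes was called by edgeR in endothelial-like barcodes, where 6.79% of all genes tested were. An unadjusted p under 0.05 was found for 5 of the 10, Pcna, Mcm5, Cdk1, Top2a and Mki67, and DESeq2 called 1, Pcna. For Cdk1 and Mki67, WT2 was the highest and WT1 the lowest of the WT mice. Without WT2, Cdk1 and Top2a were called higher, at 1.88 and 1.21 (edgeR, adjusted p = 0.0491 for both), where 0.462% of all genes were.

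Over every deposited barcode Mki67 was 3.03, 5.60 and 4.76 CPM in WT and 9.25, 6.53 and 7.50 CPM in Aromhum. Cdk1 was 1.00, 3.81 and 2.82 CPM in WT and 6.70, 4.24 and 6.35 in Aromhum. These 2 genes did not overlap, where 22.8% of all genes were higher without overlap. Their log2 fold changes were 0.84 with a standard error of 0.24 (adjusted p = 0.0515) and 1.22 with a standard error of 0.45 (adjusted p = 0.0977) by edgeR with n = 3 per genotype, and DESeq2 gave adjusted p of 0.0140 and 0.0412, where it called 17.8% of all genes higher.

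The share of barcodes called cycling depended on depth, so each barcode was thinned to 3000 UMIs and shallower barcodes were left out. Barcodes kept were 92.9% (WT2) to 95.7% (Arom3) of fibroblast-like and 52.1% (WT1) to 74.0% (WT3) of endothelial-like barcodes. In muscle stem cell or myoblast-like barcodes they were 55.4% (Arom2) to 89.0% (Arom3), and in T cell-like barcodes 20.4% (Arom2) to 67.7% (Arom3). Cycling barcodes were deeper, so leaving out shallow ones can raise a share unevenly between mice, which was not tested. In fibroblast-like barcodes the cycling share after thinning, a single random draw, was 0.375%, 0.455% and 0.627% in WT and 1.18%, 0.594% and 0.862% in Aromhum. Arom2 (39 of 6564 barcodes) lay below WT3 (10 of 1595), so the overlap rests on few barcodes. The means were 0.486% ± 0.129 (SD, n = 3) and 0.877% ± 0.291 (SD, n = 3), a difference of 0.392 percentage points that the 2-sided exact permutation test did not separate (p = 0.2, where the smallest p that 3 against 3 mice allow is 0.1). The overlap ended with doublets left out (0.442% and 0.844%, exact permutation p = 0.1). Arom2 and WT3 were the mice that overlapped, so leaving out either had to end it (differences 0.534 and 0.463). Without Arom1 the difference was 0.242. On the counts as deposited the shares were 2.19% ± 0.541 and 3.02% ± 1.06 (SD, n = 3; exact permutation p = 0.3). Within the limits of the study the difference was 0.0409 percentage points (0.401% in WT and 0.442% in Aromhum, exact permutation p = 0.9), on 2 to 5 cycling barcodes per mouse, because most barcodes with many of the genes exceeded the limit of 2500 genes.

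The fibroblast-like shares did not overlap under stricter rules. With UMIs from at least 4 of the 10 genes, the thinned share was 0.0288%, 0.207% and 0.251% in WT and 0.599%, 0.350% and 0.488% in Aromhum. All Aromhum mice lay above all WT mice (difference 0.317 percentage points, 2-sided exact permutation p = 0.1, the smallest possible). With at least 2 of the 8 genes other than Pcna and Mcm5, the thinned shares were 0.0576%, 0.290% and 0.313% in WT and 0.949%, 0.533% and 0.718% in Aromhum (exact permutation p = 0.1). The rule of 4 genes was chosen after the values had been seen.

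**Figure D3:**
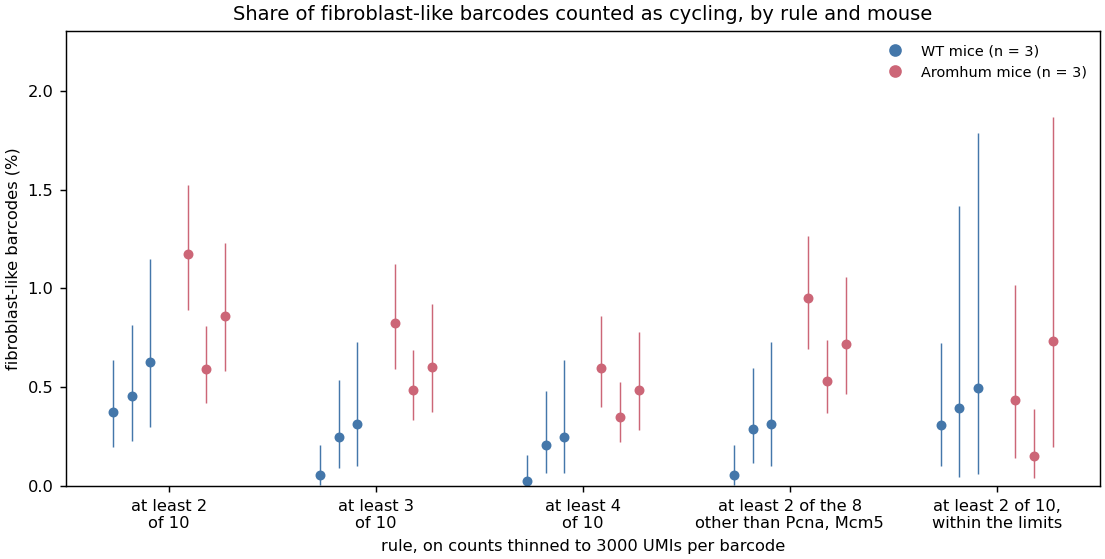
Percent of fibroblast-like barcodes counted as cycling under 5 rules, each after thinning to 3000 UMIs per barcode. Points are mice (blue WT, red Aromhum, n = 3 each) and bars are exact Clopper-Pearson 95% intervals, which cover counting error only. The genotypes overlap at 2 of 10 genes and within the limits of the study, and do not overlap at 3 of 10, at 4 of 10 or at 2 of the 8 genes.

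In whole barcodes, those with at least 4 of the genes among fibroblast-like barcodes numbered 2, 8 and 6 in WT and 56, 36 and 30 in Aromhum. This was 0.0541%, 0.308% and 0.354% of the WT fibroblast-like barcodes and 1.09%, 0.515% and 0.825% of the Aromhum ones. WT1 stood lowest, with an exact 95% interval of 0.00655% to 0.195%. The lowest Aromhum mouse, Arom2, had an interval of 0.361% to 0.713%, which overlaps those of WT2 (0.133% to 0.605%) and WT3 (0.130% to 0.770%). Myonuclei, nuclei of fibres that have left the cycle, were taken as a background. Of 2019 such barcodes, 2 (0.0991%) held at least 4 of the genes, both from Arom1 (2 of 337, 0.593%), with 0 in the other 5 libraries. That Arom1 share is above the Arom2 share in fibroblast-like barcodes. These 2 had a median of 24165.5 UMIs, against 2094 UMIs for the other myonuclei, and the part of doublets in them was not tested. Median depths of myonuclei were 1622 to 3612 UMIs per mouse. Those of fibroblast-like barcodes were 9019 to 12604 UMIs in Aromhum and 8726.5 to 10133 UMIs in WT.

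These fibroblasts gathered in 1 cluster. When fibroblast-like barcodes were clustered again, without the cell cycle genes as input, 108 barcodes formed a cluster led by the followed genes, and 103 of them held at least 4 of the genes. It held 13 of 7990 WT and 95 of 15741 Aromhum fibroblast-like barcodes. By mouse these were 2, 8 and 3 in WT1 to WT3 and 45, 26 and 24 in Arom1 to Arom3. The cluster carried fibroblast genes, which follows in part from its barcodes having first been named fibroblast-like by marker genes. In Aromhum mice Col1a1, the collagen I gene, was at 6407 CPM in the cluster and 6409 CPM in the other fibroblast-like barcodes, and the proteoglycan gene Dcn was at 9703 and 16498 CPM. The endothelial gene Pecam1 was at 3.90 CPM in it and 14.2 CPM in the others. Esr1, the estrogen receptor gene, was at 45.7 CPM in the cluster and 95.3 CPM in the others in Aromhum mice. By detection the order was the reverse, with an Esr1 UMI in 42.1% of the Aromhum barcodes of the cluster and in 35.0% of all Aromhum fibroblast-like barcodes, at median depths of 18890 and 10723 UMIs. Outside it, barcodes with at least 4 of the genes were rare in each named fibroblast subtype: 10 of 4521 in the Esr1-high hernia-associated fibroblasts (HAFs), 5 of 2030 in the Mmp3-high HAFs, 2 of 4244 in the Dmkn fibroblasts, 1 of 4897 in the fibro-adipogenic progenitors, 1 of 3450 in the tenocyte progenitors and 0 of 1430 in the tenocytes. These low counts follow in part from the clustering, which had already gathered 103 such barcodes into 1 cluster. They do not show which subtype the gathered barcodes came from. A fibroblast-like cluster led by endothelial genes held a further 15 among 829 barcodes. Leaving that cluster out gave thinned cycling shares of 0.411% ± 0.0676 in WT and 0.823% ± 0.287 in Aromhum (SD, n = 3), which did not overlap (exact permutation p = 0.1).

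Whether cycling was tied to Esr1 was tested within each mouse. By flow cytometry of Aromhum LAM cells, the paper found S and G2 phases mainly in cells stained for the estrogen receptor protein. It measured protein and DNA content, while the shares here rest on transcripts. After thinning, fibroblast-like barcodes with an Esr1 UMI were cycling in 0%, 0.418% and 1.81% in WT and 0.781%, 0.717% and 0.771% in Aromhum. Those without were cycling in 0.422%, 0.459% and 0.490% in WT and 1.25%, 0.569% and 0.878% in Aromhum. The mean difference was 0.0710 percentage points ± 0.654 (SD, n = 6) and was positive in 2 of 6 mice (2-sided exact permutation test with signs flipped, p = 0.875). These shares rest on 0 to 8 cycling barcodes with an Esr1 UMI per mouse. On the counts as deposited the difference was 1.36 percentage points and positive in 6 of 6 mice (exact permutation p = 0.03125, the smallest that 6 pairs allow), a setting that also brings the shallower barcodes back. There, both an Esr1 UMI and UMIs from 2 of the genes are found more often in deeper barcodes. This setting therefore cannot separate a tie to Esr1 from depth. On the counts as deposited the difference was 0.159 with at least 4 of the genes (positive in 4 of 6 mice, exact permutation p = 0.21875) and 0.243 with 2 of the 8 genes other than Pcna and Mcm5 (5 of 6 mice, exact permutation p = 0.15625), so the outcome changed with the depth and with the rule. By genotype, the means with at least 4 genes were -0.0573 ± 0.0676 in WT and 0.375 ± 0.127 in Aromhum (SD, n = 3). With 2 of the 8 genes they were -0.0911 ± 0.221 in WT and 0.577 ± 0.0825 in Aromhum. After thinning the WT and Aromhum means were 0.0434 and 0.0797 with at least 4 genes, and -0.0213 and -0.0475 with 2 of the 8. Esr1 itself was called in 9.89% to 11.4% of thinned WT and 14.9% to 17.0% of thinned Aromhum fibroblast-like barcodes. As deposited these shares were 22.4% to 24.1% in WT and 31.5% to 36.9% in Aromhum.

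Endothelial-like barcodes showed a high share by the rule of 2 genes, at 1.20%, 3.41% and 1.76% in WT and 2.24%, 2.81% and 3.08% in Aromhum after thinning (difference 0.584 percentage points, exact permutation p = 0.5). WT2 was the highest of all 6. Without WT2, the only WT mouse that overlapped, the means were 1.48% and 2.71% with no overlap (exact permutation p = 0.1, the smallest possible), and without WT1 the difference was 0.122. On the counts as deposited the sign turned, with means of 6.05% in WT and 5.67% in Aromhum (difference -0.377 percentage points, exact permutation p = 0.9). With 2 of the 8 genes other than Pcna and Mcm5, the thinned means were 0.601% and 1.28% (exact permutation p = 0.2), so most of the share by 2 genes needed Pcna or Mcm5. Barcodes with at least 4 of the genes were 0.190%, 0.932% and 0.627% of the type in WT and 1.04%, 0.852% and 1.65% in Aromhum, where WT2 lay above Arom2 (exact permutation p = 0.2). Over every deposited barcode the thinned shares were 1.32% ± 0.541 in WT and 1.78% ± 0.261 in Aromhum (SD, n = 3; exact permutation p = 0.3). The difference of 0.457 percentage points became 0.0943 at 5000 UMIs (exact permutation p = 0.8), 0.180 without WT1 and 0.721, with no overlap, without WT2. The mice did not overlap with at least 3 genes (0.412% and 0.992%), with at least 4 (0.279% and 0.737%) or with 2 of the 8 genes (0.483% and 1.15%), each with exact permutation p = 0.1, in libraries whose make-up of cell types also differed.

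Of the 514 barcodes with at least 4 of the genes, 161 were endothelial-like, 138 fibroblast-like and 66 dendritic-like. As a share of their own type, with each mouse weighted equally, they were 7.34% ± 4.75 (SD, n = 6) of dendritic-like, 2.91% ± 1.71 of T cell-like, 2.00% ± 2.41 of macrophage or monocyte-like, 1.43% ± 1.55 of mesothelial-like and 1.32% ± 1.22 of muscle stem cell or myoblast-like barcodes, against 0.882% ± 0.482 of endothelial-like and 0.525% ± 0.378 of fibroblast-like barcodes. Neighbours in this order differed by less than the larger of their SDs over mice. The mice differed widely within a type. In dendritic-like barcodes the share was 4.90%, 2.76% and 13.0% in WT and 5.74%, 3.97% and 13.6% in Aromhum, so 1 mouse of each genotype stood high. In muscle stem cell or myoblast-like barcodes it was 0.390%, 0.892% and 0.633% in WT and 3.06%, 2.68% and 0.281% in Aromhum, with Arom3 below all WT mice (exact permutation p = 0.4). By the rule of 2 genes on the counts as deposited the same type stood at 1.97% in WT and 4.32% in Aromhum without overlap, and T cell-like barcodes at 5.33% and 7.82% without overlap (exact permutation p = 0.1 for both), while after thinning to 3000 UMIs the muscle stem cell or myoblast-like means were 1.35% and 4.05% with overlap (exact permutation p = 0.2). The T cell-like shares rest on 3, 3 and 1 cycling barcodes in WT and 6, 12 and 3 in Aromhum. Thinned to 1000 UMIs, the T cell-like means were 1.90% and 2.10% with overlap. In lymphatic endothelial-like barcodes all 7 with at least 4 of the genes came from Aromhum mice, 1, 3 and 3 of them. The WT mice had 0 of 154, 0 of 185 and 0 of 131, which allows shares of up to 1.95%, 1.62% and 2.29%.

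After thinning, the share cycling by 2 genes in macrophage or monocyte-like barcodes was 1.79%, 1.68% and 1.89% in WT and 3.09%, 3.19% and 7.94% in Aromhum, without overlap (exact permutation p = 0.1), on 1 to 3 cycling barcodes per WT mouse. The mice overlapped at 1000 UMIs (p = 0.8), at 5000 UMIs (p = 0.4), on the counts as deposited (8.13% and 10.4%, p = 0.7) and with at least 3 of the genes (p = 0.8), all by the exact permutation test. Of the types other than fibroblast-like and endothelial-like, 8 had a test, macrophage or monocyte-like among them. The thinned share by 2 genes was higher in the mean in Aromhum in 7 of these, where 0.1 is the smallest p that the test allows. With a mouse left out this count ran from 5 (without Arom1) to 8 (without WT3).

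**Figure D4:**
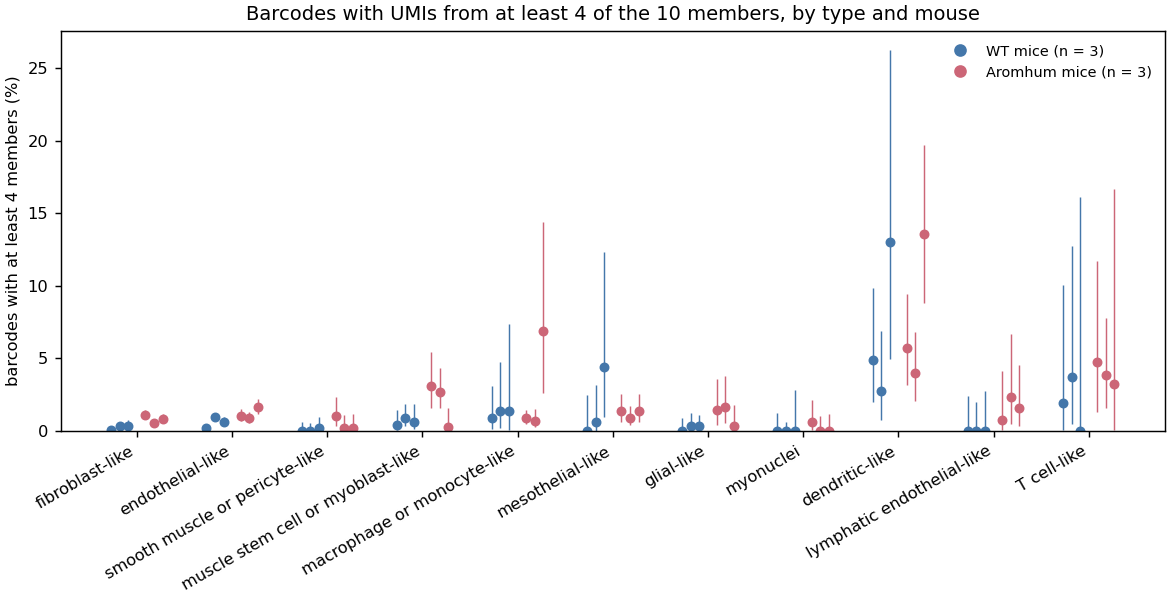
Percent of barcodes with UMIs from at least 4 of the 10 genes, for each cell type and mouse on the counts as deposited. Points are mice (blue WT, red Aromhum, n = 3 each) and bars exact Clopper-Pearson 95% intervals. Dendritic-like barcodes reach 13.0% in WT3 and 13.6% in Arom3, and fibroblast-like barcodes stay at or under 1.09%.

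In macrophage or monocyte-like barcodes Mki67 was mostly detected without the 7 further genes of S phase, G2 and mitosis, with Pcna and Mcm5 not counted. Mki67 was 30.5, 21.8 and 11.8 CPM in WT and 41.2, 57.2 and 67.6 CPM in Aromhum, without overlap, where 9.05% of genes tested in these cells were higher without overlap. The log2 fold change was 1.21 with a standard error of 0.30 and was not called (edgeR, n = 3 per genotype, adjusted p = 0.156). Barcodes with Mki67 but none of the 7 further genes of S phase, G2 and mitosis made up 5.24%, 8.67% and 2.74% of the type in WT and 12.2%, 15.1% and 12.6% in Aromhum. Barcodes with at least 4 of the genes were 0.873%, 1.33% and 1.37% in WT and 0.866%, 0.680% and 6.90% in Aromhum, with Arom3 standing apart on 87 barcodes. Birc5 in the same sums was 20.6, 8.01 and 7.90 CPM in WT and 8.90, 3.68 and 45.6 in Aromhum. The numbers of barcodes were uneven, 229, 150 and 73 in WT and 1616, 883 and 87 in Aromhum. Of the barcodes with Mki67, those with none of the 7 further genes ran from 2 of 4 (WT3) to 133 of 140 (Arom2). In endothelial-like barcodes they ran from 23 of 63 (Arom3) to 24 of 30 (WT1).

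In the 9 cell types other than fibroblast-like and endothelial-like, 43 pairs of gene and cell type passed the filter on low counts, of 90, and a pair could pass through the genotype in which it was higher. None was called by edgeR or by DESeq2, and 9 had an unadjusted p under 0.05 in edgeR. This count changed without Arom3 and without the filter. Without Arom3, 6 of the 10 genes were called higher in muscle stem cell or myoblast-like barcodes (Ccna2, Cdk1, Top2a, Mki67, Cenpf and Birc5, with log2 fold changes of 1.92 to 2.43) and 1, Pcna, lower (-0.66, edgeR adjusted p = 0.0110), in a fit where 7.66% of all genes were called higher and 8.76% lower. Also without Arom3, 2 were called higher in smooth muscle or pericyte-like (Cdk1 and Ube2c, where 6.46% of all genes were) and 2 in glial-like barcodes (Ccna2 and Top2a, where 1.01% were). With no filter on low counts, 5 were called higher in smooth muscle or pericyte-like (where 2.27% of all genes were) and 2 in lymphatic endothelial-like barcodes (where 0.389% were). With all mice and the filter, the share of all genes that edgeR called was 2.17% in smooth muscle or pericyte-like, 1.71% in muscle stem cell or myoblast-like, 0.716% in macrophage or monocyte-like, 0.693% in T cell-like, 0.623% in glial-like, 0.282% in mesothelial-like and 0.147% in myonuclei, and 0% in dendritic-like and lymphatic endothelial-like barcodes. In muscle stem cell or myoblast-like barcodes all 10 genes passed the filter, and Mcm5 was higher without overlap, at 3.23, 2.50 and 3.86 CPM in WT and 6.40, 8.42 and 5.23 CPM in Aromhum, where 14.5% of genes were (log2 fold change 1.03, standard error 0.33, edgeR adjusted p = 0.117). Birc5 there was 1.84, 8.25 and 7.71 CPM in WT and 48.6, 27.9 and 1.05 in Aromhum, a log2 fold change of 1.93 that joined 2 high mice and the lowest mouse of all 6 (edgeR, adjusted p = 0.197).

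**Figure D5:**
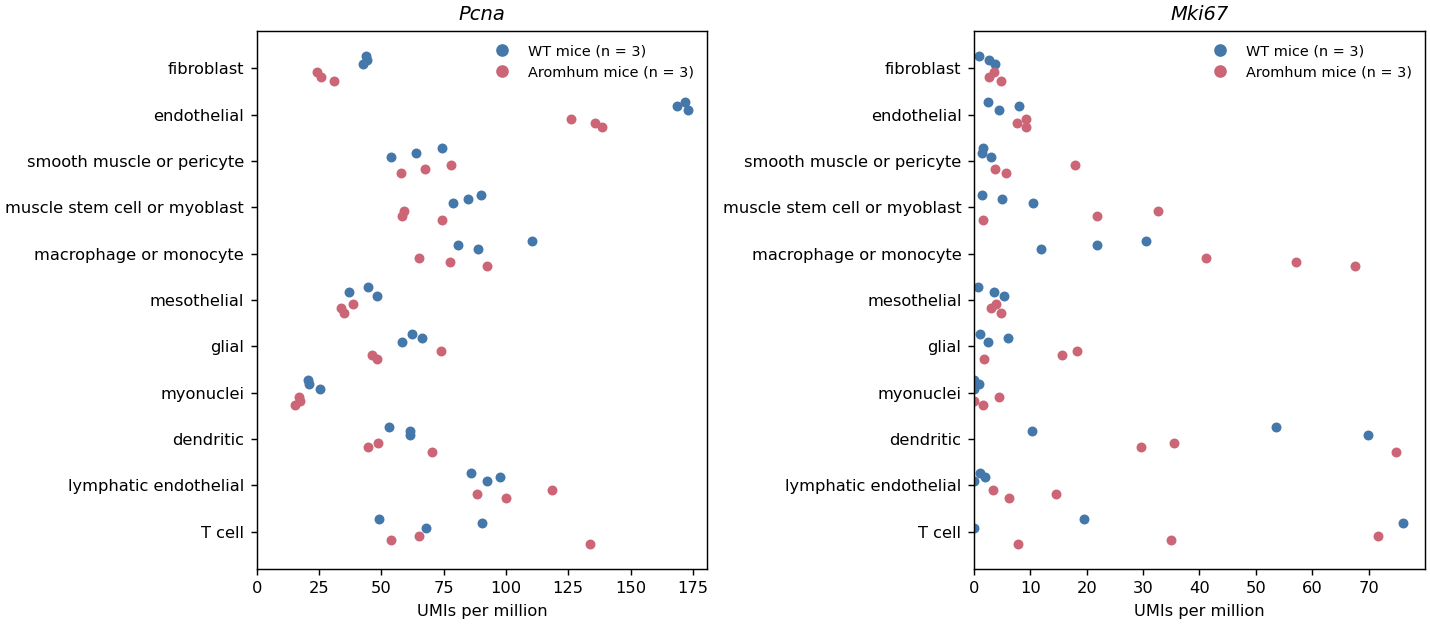
Level of Pcna (left) and Mki67 (right) in CPM for each cell type summed per mouse. Points are mice (blue WT, red Aromhum, n = 3 each). Pcna is highest in endothelial-like barcodes and lower in Aromhum than WT there, and Mki67 in macrophage or monocyte-like barcodes runs from 11.8 to 30.5 in WT and from 41.2 to 67.6 in Aromhum.

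The wider cell cycle lists gave the context. In fibroblast-like barcodes 46 genes of replication and its preparation were tested, of which 3 rose (Lig1, Rfc2 and Gins2) and 3 fell (Pcna, Slbp and Cdc6), where 7.68% of all genes were called higher and 6.86% lower, so both counts were near the share over all genes. Lig1 seals nicks in replicated DNA, Rfc2 helps load the PCNA clamp, and Gins2 is part of the replicative helicase. Slbp binds histone mRNA, and Cdc6 loads the helicase on origins. Slbp was 95.2, 94.4 and 87.6 CPM in WT and 58.0, 60.9 and 69.3 in Aromhum, a log2 fold change of -0.56 with a standard error of 0.09 (edgeR, adjusted p = 0.0187). Of 57 genes of G2 and mitosis, 1 rose (Smc4, of the condensin complex, at 0.44) and 2 fell (Hmgb2, a chromatin protein, and Pttg1, or securin), counts below that share. Hmgb2 was 54.1, 67.6 and 60.1 CPM in WT and 30.4, 32.3 and 38.1 in Aromhum (log2 fold change -0.85, standard error 0.10, edgeR adjusted p = 0.0127). The median log2 fold change was 0.44 over the 57 genes and 0.04 over the 46, against 0.00 over all 14188 genes tested.

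Of 14 genes that restrain the cycle, 4 fell and 0 rose in fibroblast-like barcodes, where 6.86% of all genes were called lower. Gas1, a gene of growth arrest, was 701, 797 and 721 CPM in WT and 183, 168 and 396 in Aromhum (log2 fold change -1.59, standard error 0.30, edgeR adjusted p = 0.0238). The inhibitor genes Cdkn1a (p21), Cdkn1c (p57) and Cdkn2d (p19) had log2 fold changes of -0.88, -1.23 and -0.99, with adjusted p of 0.0224, 0.0245 and 0.0478. All 4 separated the genotypes without overlap, where 16.4% of all genes were lower without overlap. The median over the 14 genes was -0.14. The mix of subtypes in these sums differed, with tenocyte progenitors at 1908 of 7990 WT and 1542 of 15741 Aromhum fibroblast-like barcodes. Gas1 is among the markers the paper lists for a cluster it proposes as tenocyte progenitors. For its tenocytes the paper lists both Gas1 and Cdkn1c. The part of the subtype mix in these falls was not tested. The calls of listed genes in fibroblast-like barcodes changed with the mice kept. A count of 0 listed genes, in place of 18, was called without WT2, WT3, Arom1 or Arom2, 4 without WT1 and 33 without Arom3.

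Genes of cycle entry were split. Of 16 tested in fibroblast-like barcodes, 2 rose and 3 fell, where 7.68% of all genes were called higher and 6.86% lower. Cdk6, a G1 kinase, was 2.42, 2.12 and 2.23 CPM in WT and 14.6, 12.4 and 5.41 in Aromhum (log2 fold change 2.27, standard error 0.39, edgeR adjusted p = 0.0209). E2f3, a transcription factor of the G1/S step, rose by 0.69. Myc, a growth factor-responsive transcription factor, was 391, 340 and 360 CPM in WT and 197, 161 and 216 in Aromhum (log2 fold change -0.94, standard error 0.13, edgeR adjusted p = 0.0165). Ccnd1, or cyclin D1, the partner of Cdk6, fell by 0.78, and E2f7, a repressor of E2F targets, fell by 1.54. In endothelial-like barcodes 1 of the 129 listed genes tested rose and 7 fell, where 4.07% of all genes were called higher and 2.72% lower. Tyms, the thymidylate synthase, was the one that rose, from 23.4, 17.2 and 17.4 CPM in WT to 48.5, 40.0 and 32.0 in Aromhum (log2 fold change 1.05, standard error 0.18, edgeR adjusted p = 0.0173). Those that fell were Cdkn1c, Btg2, Mycn, Cdk2, Slbp, Ccne1 and Cdc6. Over every deposited barcode 6 of the 135 listed genes tested rose and 22 fell, where 12.4% of all genes were called higher and 11.2% lower. The 20 with the smallest adjusted p included Gins2, E2f1, Dut and Cdk4, which rose, and Cdkn1c, Cdkn1a, Rb1, Cdkn1b, Slbp, Pcna, Cdc6, Rad51ap1, Rpa2, Lbr, Pttg1, Hmgb2, Cks2, Cdk2, Mycn and E2f7, which fell, in sums where the make-up of cell types also differed.

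The genes most like the summed level of the 10 were sought over 68 sums of a cell type in a mouse, for 15805 genes with at least 50 UMIs. Of the genes outside the 10, those with the highest Spearman correlation were Kif23 (0.80), Dbf4 (0.79), H2afz (0.78), Hilpda (0.77), Mcm3 (0.77), Incenp (0.76), Smc2 (0.75), Tagln2 (0.75), Baz1a (0.74) and Pclaf (0.74). These sums share libraries, and a cell type's depth enters every gene, so the values are descriptive. Pcna supplied more UMIs than the rest of the 10 genes in each library but Arom1 (4832 against 6896) and Arom3 (5304 against 5345). The order was therefore also taken without Pcna, and Pclaf (0.85), Racgap1 (0.78), Spc24 (0.77), Knstrn (0.76) and Ccnb2 (0.76) then came first.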

How the data were processed

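The deposited table held raw UMI counts per gene and barcode for 6 libraries, which the authors made with Cell Ranger 3.0.2 on mm10 with human CYP19A1 added. The authors had reduced the genes by a filter not given in the sources used here, and had not applied their limits on barcodes. Every column belonged to 1 of the 6 libraries, and 0 columns of other samples were present. The 10 genes and the gene lists were chosen with earlier results of these data known.

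Barcodes were clustered with Scanpy 1.11.5 and leidenalg 0.10.2 (2000 variable genes, 30 principal components, 20 neighbors, Leiden resolution 0.8), and fibroblast-like barcodes again, into 33 and 20 clusters. The 10 genes and the listed cell cycle genes were not used. A cluster was named from at least 3 detected markers, so names were rebuilt and can differ from those of the study. Scrublet marked 1266 barcodes as doublets, with WT2 and WT3, whose own thresholds marked 0%, given the median threshold of the other libraries. Doublets were kept in the main values and left out in an alternative.

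For each cell type the UMIs of a mouse were added up, so that the mouse was the replicate, and tested across all genes with the quasi-likelihood test of edgeR 4.0.16 (R 4.3.3, TMM scaling, filterByExpr with a minimum count of 10, Benjamini-Hochberg adjustment, threshold 0.05). The standard error was the fold change divided by the square root of F. The fit was tested on simulated data with 200 changed genes. Cell types with at least 20 barcodes in each mouse were fitted, which left out neutrophil-like barcodes. DESeq2 1.42.0, RLE scaling, no filter, the replicate number as a block, leaving out each mouse, the limits of the study and leaving out doublets were the alternatives. Shares of cycling barcodes were compared by exact permutation tests over mice, at 3000 UMIs per barcode, with shallower barcodes left out. Intervals are exact Clopper-Pearson at 95%, floors are 3 counts, and both cover counting error only.

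The study processed each WT mouse together with an Aromhum littermate on 1 of 3 dates, and the sources used here do not say which numbers share a date. The genes named were the 10, up to 20 listed genes per fit with the smallest adjusted p among those past the threshold, and the 10 genes with the highest Spearman correlation with the summed 10. The other genes named were markers or were chosen after their values were seen. Promoter windows were taken from RefSeq, with 9 of the 10 genes matched.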

Additional observations from a re-analysis of the deposited data

Results flagged for a closer look

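For 8 of the listed cell cycle genes the difference between Aromhum and WT was not the same in fibroblast-like and endothelial-like barcodes, by the edgeR interaction test with mouse as a block (n = 3 mice per genotype). Values are the log2 fold change in fibroblast-like minus that in endothelial-like barcodes, with the adjusted p over all 14567 genes tested. The 8 were 5.97% of the 134 listed genes tested, where 9.47% of all genes were called. None of the 10 followed genes was among them. Of the listed genes, 2 were called higher and 6 lower. Without WT2 these counts were 0 and 3, without WT3 1 and 4, without Arom1 1 and 3, and without Arom3 5 and 10.

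The difference was negative for Ccnd1 (-1.42, edgeR adjusted p = 0.00349), E2f7 (-1.30, 0.00878), Gas1 (-1.22, 0.0324), Myc (-0.90, 0.00349), Tyms (-0.59, 0.0257) and Cdkn1a (-0.59, 0.0266). It was positive for Cdk6 (2.09, 0.0117) and Rfc2 (0.64, 0.0249). These genes were named for a call in at least 1 of the fits, so the test was made on genes already known to differ in one of them.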

How the results depend on the processing

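Pcna was lower in Aromhum mice under every setting run. Its log2 fold change ran from -0.76 to -0.54 in fibroblast-like barcodes (called in 9 of 14 settings, 1 of them the removal of barcodes by these genes, which is no test), from -1.15 to -0.64 over every barcode (8 of 13) and from -0.41 to -0.33 in endothelial-like barcodes (3 of 13). Within the limits of the study it was not called in any of the 3 fits (edgeR adjusted p = 0.358 over every barcode, 0.192 and 0.0736). Only 2 of the 10 genes passed the filter in fibroblast-like barcodes within those limits. Over all cell types, the limits kept 45 of the 514 barcodes with at least 4 of the genes.

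Counts of genes called moved with the setting. Over every barcode the 3612 genes became 0 within the limits and 0 to 4877 when a mouse was left out, and the 28 listed genes became 45 with DESeq2, 0 within the limits and 0 to 36. In fibroblast-like barcodes the 2062 genes became 3112 with DESeq2, 1 within the limits and 2 to 4224, and the 18 listed genes 0 within the limits and 0 to 33. In endothelial-like barcodes the 883 genes became 2007 with the replicate block and 61 to 1081 with a mouse left out, and the 8 listed genes 13 and 0 to 7. The 537 genes over the other types became 2130 with no filter, 2151 with the replicate block, 1765 with DESeq2 and 20 to 4632. The 1379 genes of the interaction became 293 to 2370. A fit with a mouse left out keeps 2 mice in that genotype, and the highest counts were without Arom3.

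Same-numbered mice did not deviate together throughout (correlations of 0.25, -0.02 and 0.30 over every barcode, 0.18, -0.12 and 0.17 in fibroblast-like and 0.23, 0.09 and 0.32 in endothelial-like barcodes), so the numbers were not taken as pairs. Differently numbered mice ran from -0.32 to 0.19, -0.29 to 0.24 and -0.26 to 0.05 in the same order. In endothelial-like barcodes every same-numbered correlation lay above these, so the numbers may pair the mice there. With the replicate block the call of Pcna in endothelial-like barcodes was gained (edgeR adjusted p = 0.0262).

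The endothelial-like difference in cycling share became -0.377 percentage points on the counts as deposited, 0.246 at 5000 UMIs, 0.0549 within the limits and 0.122 to 1.23 with a mouse left out. With a mouse left out the fibroblast-like difference ran from 0.242 to 0.534 and that over every barcode from 0.180 to 0.721. The Esr1 difference became 1.36 on the counts as deposited, 0.243 there with 2 of the 8 genes and 0.159 with at least 4, 0.218 at no more than 5% mitochondrial UMIs, 0.0960 without doublets, 0.0616 with at least 4 genes, 0.0294 with at least 3, -0.0344 with 2 of the 8 genes, -0.187 at 1000 UMIs, -0.168 at 5000 UMIs, -0.362 within the limits, -0.139 without the cluster led by endothelial genes (added after seeing the data), and -0.178 to 0.179 with a mouse left out.

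Small fold changes changed sign. Ccnb1 was -1.17 over every barcode within the limits. In fibroblast-like barcodes without those holding at least 4 of the genes, a setting added after seeing the data that removes barcodes by these same genes, Mcm5 was -0.10, Top2a -0.091, Mki67 -0.032 and Cenpf -0.74, and without doublets Cenpf was -0.0091. With a mouse left out, over every barcode Mcm5 ran from -0.0028 to 0.25, Cenpf from -0.063 to 0.85 and Ccnb1 from -0.11 to 0.37. In fibroblast-like barcodes Cenpf then ran from -0.43 to 0.81 and Ccnb1 from -0.54 to 0.14, and in endothelial-like barcodes Ccnb1 ran from -0.47 to 0.56. The cause was not tested. The alternatives to the interaction and to the fits and shares of other types, the rule of 4 genes, and the rule of 2 of the 8 genes on counts as deposited were added after seeing the data.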
